A study of Homo sapiens with 28 samples.

Results

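ARID1A_Y42S is, by its title, an altered form of ARID1A. Open chromatin in the libraries with that title was compared with open chromatin in the libraries titled wild-type ARID1A. The members are 4 libraries chosen by their titles, ARID1A_Y42S replicates 1 and 2 and ARID1A_WT replicates 1 and 2, of 28 libraries in the series. The 4 Empty_vector libraries served as the floor, that is, the chromatin of the same cells without an added ARID1A. All were made from AN3CA, an established human endometrial carcinoma line, with ATAC-seq, an assay that maps accessible DNA by where a transposase can insert adapters. The other 20 libraries, 2 for each of 10 further forms of ARID1A or ARID1B, were scored in the same way where they help to place ARID1A_Y42S.

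ARID1A is a large subunit of the canonical BAF complex (cBAF), a chromatin remodeler that uses ATP to move or evict nucleosomes and so keeps enhancers accessible. ARID1A and its paralog ARID1B are alternatives to each other in cBAF, and both combine an ARID domain, which binds DNA, with long disordered regions. ARID1A is often inactivated in endometrial carcinoma. The series title concerns local condensation of cBAF governed by ARID1A and ARID1B, and the comparison of ARID1A_Y42S with wild type asks whether the altered protein opens the chromatin that wild type opens. The name Y42S is used as the titles give it, since the labels do not describe the change, and the labels do not say what ARID1A or ARID1B the cells make themselves or how the constructs are driven.

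The labels of ARID1A_Y42S disagree with each other. The genotype label of both libraries names the empty vector, while their titles, and the peak names in both deposited lists, carry Y42S. The libraries were grouped by title. The lists hold no measure of construct expression, so whether Y42S was present in these cells was not tested. They cannot tell a construct without effect from one that was absent. The peak names also carry a date code. Both ARID1A_Y42S libraries have a code that they share with 6 ARID1B deletion libraries and with no wild-type or empty vector library. ARID1A_WT 1 shares its code with Empty_vector 1, ARID1A_WT 2 shares another with Empty_vector 2, and Empty_vector 3 and 4 share a further code. The construct and the date code therefore cannot be told apart in a direct comparison of ARID1A_Y42S with wild type, and no value within a date code exists for it.

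Each library is a list of peaks with no read counts, so the sequencing depth is unknown. The deposited lists held 28883 peaks in ARID1A_Y42S 1 and 19489 in ARID1A_Y42S 2, against 76589 and 62091 in ARID1A_WT 1 and 2. Empty_vector 1 to 4 had 45286, 49528, 24573 and 28353 peaks. So that longer lists would not make more calls, every list was cut to its 19433 most significant peaks on chromosomes 1 to 22 and X, which is the length of the ARID1A_Y42S 2 list there. At that length the lists still differed in kind. The last peak kept had a -log10 p-value of 5.39 in ARID1A_Y42S 2, the lowest of these 8 libraries, and of 12.1 in ARID1A_Y42S 1, 24.1 in ARID1A_WT 1 and 17.7 in ARID1A_WT 2. Among the empty vector lists it ran from 8.71 to 26.9. The median peak was 803 and 645 bp wide in ARID1A_Y42S 1 and 2, 1119 and 1053 bp in ARID1A_WT 1 and 2, and from 837 to 1179 bp in the empty vector. Both ARID1A_Y42S lists thus had narrower peaks than any of the other 6, and ARID1A_Y42S 2 reached down to the weakest ones.

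Merging the overlapping peaks of the 8 cut lists gave 29759 regions, and a region counted as called in a library that had a peak overlapping it by 1 bp or more. All 8 libraries called 12927 of them (43.4%), so a large shared set was open with and without an added ARID1A. Both wild-type libraries and neither ARID1A_Y42S library called 2942 regions (9.89% of all). Both ARID1A_Y42S libraries and neither wild-type library called 1708 (5.74% of all). The 2 directions were not alike in the empty vector. Of the 2942 regions called with wild type, 2681 were called by no empty vector library and 57 by all 4. Of the 1708 called with ARID1A_Y42S, 1544 (90.4%) were called by at least 1 empty vector library, 568 (33.3%) by all 4 and 164 by none. Over all 29759 regions, 78.5% were called by at least 1 empty vector library and 52.8% by all 4, a share that the regions called in all 8 libraries help to raise. The wild-type libraries enter both the comparison with ARID1A_Y42S and that with the empty vector, so these counts are a description of where the regions lie relative to the floor and carry no test.

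**Figure D1:**
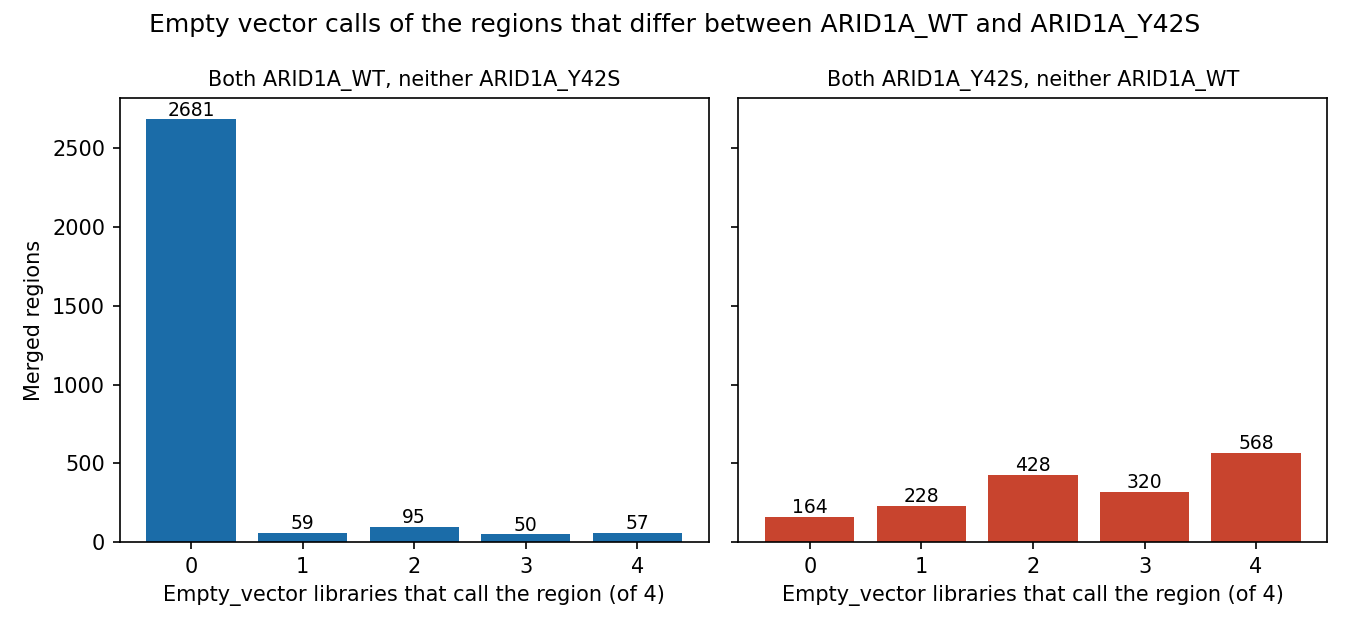
Number of merged regions (vertical axis) by the number of Empty_vector libraries, of 4, that also call them (horizontal axis), for regions called by both ARID1A_WT and neither ARID1A_Y42S library (left) and by both ARID1A_Y42S and neither ARID1A_WT library (right). The left class sits almost whole at 0 empty vector libraries (2681 of 2942), while the right class is spread up to all 4 (568 of 1708).

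The replicates of ARID1A_Y42S gave similar counts when taken singly. ARID1A_Y42S 1 missed 3392 regions that both wild-type libraries called, and ARID1A_Y42S 2 missed 3570. In the other direction, ARID1A_Y42S 1 called 3631 regions that neither wild-type library called, 633 of them in no empty vector library. ARID1A_Y42S 2 called 3783, of which 1327 were in no empty vector library. With at least 1 empty vector library, ARID1A_Y42S 1 called 2998 such regions and ARID1A_Y42S 2 called 2456, so the replicates differed in both directions. Of the 8 libraries, 469 regions were called by ARID1A_Y42S 1 alone and 1163 by ARID1A_Y42S 2 alone. These were narrow, with median widths of 302 and 262 bp, against 1448 bp for the regions called in all 8.

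Side by side, each pair of lists differed from the others to a different degree. On the regions merged from the 4 libraries of each comparison, both wild-type libraries against neither ARID1A_Y42S library gave 2942 regions, and the reverse gave 1733. Wild type against Empty_vector 1 and 2, the libraries of its own date codes, gave 3034 and 2286. Wild type against Empty_vector 3 and 4 gave 3158 and 2267. ARID1A_Y42S against Empty_vector 1 and 2 gave 841 and 1089, and against Empty_vector 3 and 4 it gave 394 and 548. The 2 empty vector pairs differed from each other by 953 and 838. The counts for ARID1A_Y42S against Empty_vector 3 and 4 were thus below those between the empty vector pairs, whereas every count with wild type was above them. A pair whose libraries disagree gives lower counts both ways, since a count needs both libraries of a pair and neither of the other. Over regions called in all 8 libraries, the rank correlation within the pair was 0.855 for ARID1A_Y42S. It was 0.926 for Empty_vector 1 and 2 and 0.901 for Empty_vector 3 and 4. The low counts therefore do not show that ARID1A_Y42S is nearer to the empty vector than those pairs are to each other. In percent of the merged regions, wild type against ARID1A_Y42S gave 10.8% and 6.37%. ARID1A_Y42S against Empty_vector 3 and 4 gave 1.63% and 2.26%, and the empty vector pairs 4.07% and 3.58%. Other constructs also gave low counts against ARID1A_Y42S. ARID1A_Y42S against ARID1B_Block9del gave 349 and 536, against ARID1A_DDX4 435 and 523, and against ARID1A_AQGscramC1C2 429 and 628. Against ARID1B_Block13del it gave 486 and 723, but against ARID1B_A457_G461del 1743 and 3122. These comparisons share libraries and were not tested against each other.

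The overlap of the equal-length lists also put ARID1A_Y42S nearer to the empty vector than to wild type. Unlike the counts, it put neither ARID1A_Y42S library nearer to the empty vector than the empty vector libraries were to each other on average. The Jaccard index (shared regions over the union of the regions of a library pair) was on average 0.787 between ARID1A_Y42S 1 and the empty vector and 0.623 between it and wild type. For ARID1A_Y42S 2 the values were 0.720 and 0.608. The 2 ARID1A_Y42S libraries had an index of 0.730 with each other, the 2 wild-type libraries 0.814, and the empty vector libraries averaged 0.802 among themselves. ARID1A_Y42S 1 was thus nearer to the empty vector than to its own replicate, and ARID1A_Y42S 2 stood a little apart from all. The index with the empty vector exceeded that with wild type by 0.138 on average over the 2 libraries. Such closeness was not particular to the empty vector. The mean index with ARID1A_Y42S was 0.786 in ARID1B_Block9del, 0.781 in ARID1A_AQGscramC1C2, 0.775 in ARID1A_DDX4 and 0.759 in ARID1B_Block13del. It was 0.753 in the empty vector. The remaining constructs beside wild-type ARID1A were lower, from 0.543 to 0.716.

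To score libraries on regions they did not help to choose, gained sets were made within a date code. They hold 4255 regions called by ARID1A_WT 1 and not by Empty_vector 1, and 4279 called by ARID1A_WT 2 and not by Empty_vector 2. The recovery of a library is the percent of a set that it calls, averaged over the sets of other date codes than its own. Recovery was 9.46% in ARID1A_Y42S 1 and 11.8% in ARID1A_Y42S 2, or 10.6% ± 1.66 (SD, n = 2). It was 73.9% and 75.7% in ARID1A_WT 1 and 2, or 74.8% ± 1.29 (SD, n = 2). The empty vector floor was 5.75%, 6.72%, 7.97% and 8.41% in Empty_vector 1 to 4, or 7.21% ± 1.21 (SD, n = 4). The ARID1A_Y42S values lay far below the wild-type values and just above the highest empty vector value, and neither pair of groups overlapped. The distance from the empty vector depended on the cut. With lists of 9716 peaks recovery was 21.2% and 22.7% in ARID1A_Y42S 1 and 2, inside the empty vector range of 17.6% to 24.3%, and 66.3% and 69.3% in wild type. With peaks ranked by fold, it was 17.0% and 15.2% in ARID1A_Y42S against 15.9% in the highest empty vector library.

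The difference between ARID1A_Y42S and wild type was -64.2 percentage points (p = 0.333 in a two-sided exact permutation test, adjusted p = 0.333). This p is the smallest that 2 libraries against 2 allow, so the design cannot pass 0.05. The difference between ARID1A_Y42S and the empty vector was 3.42 percentage points (p = 0.0667 in a two-sided exact permutation test, adjusted p = 0.133), again the smallest p that 2 against 4 allow. Without Empty_vector 1 it was 2.14 percentage points, from the set of ARID1A_WT 2 alone (exact permutation test, p = 0.333). Adjustment followed Benjamini and Hochberg over 4 tests. Whether the replicates were separate cultures is not stated in the labels. The p-values measure only how far these libraries spread, which may be technical.

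Other constructs give the scale on which to read these values. ARID1B_Block9del, which has the date code of ARID1A_Y42S, recovered 10.6% ± 0.688 (SD, n = 2), and ARID1A_AQGscramC1C2 recovered 9.97% ± 0.0411 (SD, n = 2). Both lie within the spread of the ARID1A_Y42S replicates. ARID1A_DDX4 recovered 13.4% ± 0.340 (SD, n = 2). The 2 remaining constructs with the date code of ARID1A_Y42S were higher, ARID1B_Block13del at 24.2% ± 1.21 (SD, n = 2) and ARID1B_A457_G461del at 55.7% ± 0.721 (SD, n = 2), so the 6 other libraries of that code recovered from 10.1% to 56.3% of the sets. Differences between these constructs and ARID1A_Y42S were not tested.

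**Figure D2:**
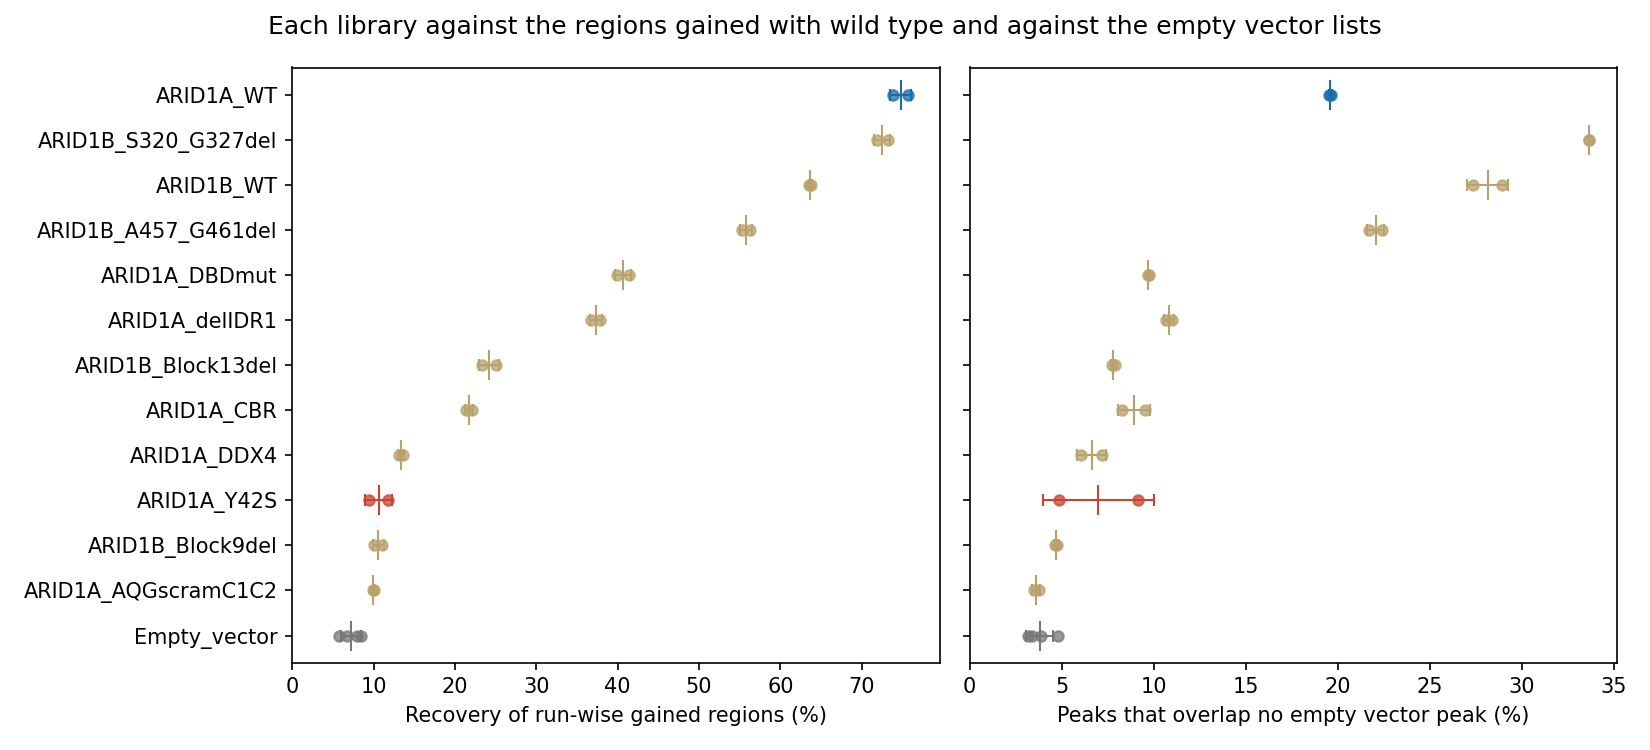
Left, recovery of the regions gained within a date code (percent of the set called); right, share of a library's 19433 peaks that overlap no empty vector peak (percent). Points are libraries, vertical marks are group means, error bars are SD over the 2 libraries of a group (4 for Empty_vector). ARID1A_Y42S, at 10.6% on the left, sits beside ARID1B_Block9del and ARID1A_AQGscramC1C2 at the low end, far from ARID1A_WT at 74.8%.

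The share of a list that overlaps no empty vector peak is a second measure that uses no wild-type library. It was taken over sets of 3 empty vector lists, so that an empty vector library was never set against itself. It was 4.88% in ARID1A_Y42S 1 and 9.12% in ARID1A_Y42S 2, against 19.5% and 19.7% in ARID1A_WT 1 and 2. In Empty_vector 1 to 4 it was 3.39%, 3.16%, 4.82% and 3.88%. ARID1A_Y42S 1 was thus level with the highest empty vector library, while ARID1A_Y42S 2 was well above it. The difference between ARID1A_Y42S and wild type was -12.6 percentage points (p = 0.333 in a two-sided exact permutation test, adjusted p = 0.333). The difference between ARID1A_Y42S and the empty vector was 3.18 percentage points (p = 0.0667 in a two-sided exact permutation test, adjusted p = 0.133). Without ARID1A_Y42S 2, with lists of 24527 peaks, the second difference was 1.12 percentage points and ARID1A_Y42S 1 lay between the empty vector libraries (exact permutation test, p = 0.800).

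The position of these peaks in the lists differed more than their number. Within the first 10000 ranks, 6.27% and 6.16% of the peaks of ARID1A_WT 1 and 2 overlapped no empty vector peak. The same share was 0.0350% in ARID1A_Y42S 1 and 0.185% in ARID1A_Y42S 2, inside the empty vector range of 0% to 0.250%. In the last 433 ranks it was 30.8% in ARID1A_Y42S 1 and 63.5% in ARID1A_Y42S 2. There it was 46.2% and 46.5% in the wild-type libraries and from 22.9% to 35.8% in the empty vector. With wild type, regions off the floor thus began among strong peaks. With ARID1A_Y42S they lay near the end of the list, where ARID1A_Y42S 2 had more of them than any of the other 7 libraries. The part of weak peaks in this excess was not tested.

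**Figure D3:**
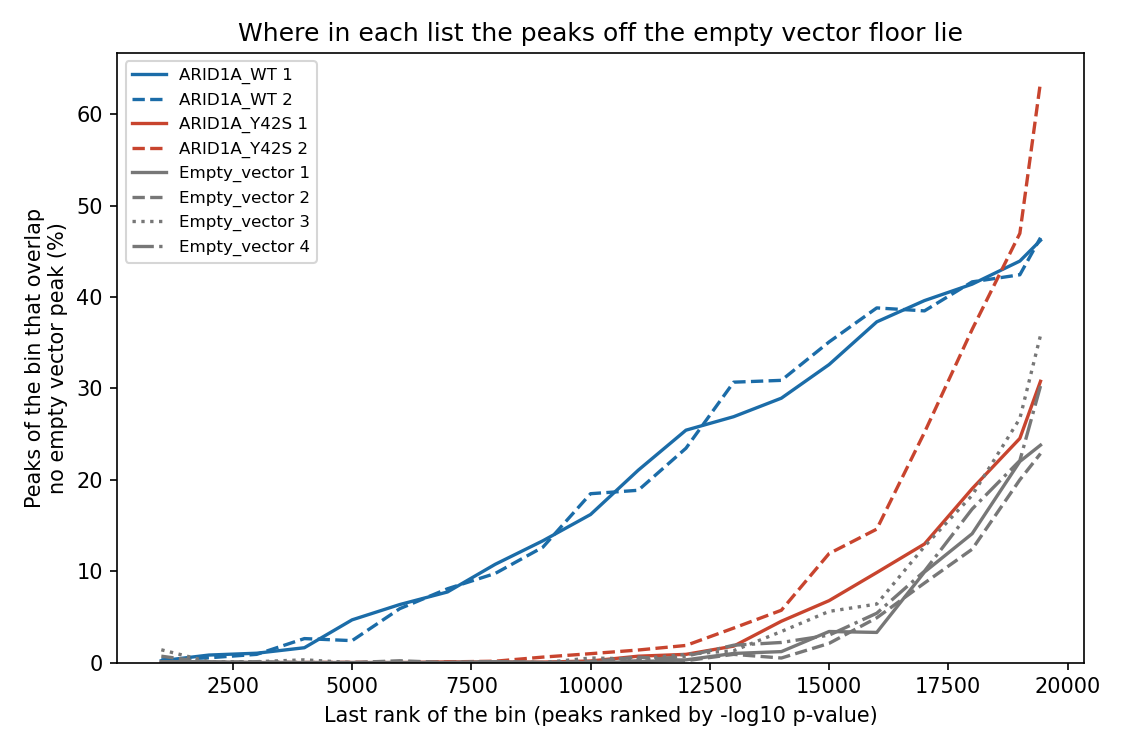
Percent of peaks that overlap no empty vector peak (vertical axis) in successive bins of 1000 ranks (horizontal axis, peaks ranked by -log10 p-value, the last bin holding 433), one line per library. Both wild-type lines rise from the strong ranks on, while the ARID1A_Y42S lines stay near 0 with the empty vector to about rank 10000 and rise at the end, to 30.8% and 63.5%.

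The regions that wild type opened in both replicates were then followed one by one. Both wild-type libraries and no empty vector library called 2876 regions (9.66% of all), named gained here. ARID1A_Y42S 1 called 62 of them (2.16%, 95% Wilson interval 1.69 to 2.75) and ARID1A_Y42S 2 called 173 (6.02%, interval 5.20 to 6.94). Both called 40, ARID1A_Y42S 1 alone 22 and ARID1A_Y42S 2 alone 133. The intervals cover counting error only. Over all regions, ARID1A_Y42S 1 and 2 called 65.0% and 63.6%, shares that the regions called in every library help to raise. Both ARID1A_Y42S and no empty vector library called 214 of all regions (0.719%), which include the 40. All 4 empty vector and neither ARID1A_Y42S library called 252 (0.847%). The gained regions were chosen to be absent from the empty vector at this length, so its own share of them is 0 by construction.

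List length bears on these shares, since a region can lie just past the cut. In the lists as deposited, ARID1A_Y42S 1 called 753 gained regions (26.2%, interval 24.6 to 27.8), while ARID1A_Y42S 2, which has no further peaks, stayed at 173. These lists held 80.1% and 63.6% of all regions. Empty_vector 1 and 2 called 773 (26.9%) and 870 (30.3%) with far longer lists, and Empty_vector 3 and 4 called 133 (4.62%) and 262 (9.11%). The empty vector libraries could call these regions only past the cut, by how the regions were chosen, so their shares are not comparable with those of ARID1A_Y42S. With every list cut to 28314 peaks and without ARID1A_Y42S 2 and Empty_vector 3, an alternative added after the data were seen, recovery of the sets made within date codes was 13.3% in ARID1A_Y42S 1. It was 78.8% and 80.2% in ARID1A_WT 1 and 2, and 2.85%, 3.26% and 6.87% in Empty_vector 1, 2 and 4. The share of the list off the floor, at the same length, was 9.74% in ARID1A_Y42S 1 and 4.32%, 3.69% and 12.5% in Empty_vector 1, 2 and 4, so on that measure ARID1A_Y42S 1 lay inside the empty vector range. In recovery the excess of ARID1A_Y42S 1 over the empty vector mean was 8.94 percentage points (p = 0.250 in a two-sided exact permutation test, the smallest that 1 against 3 allows).

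A stricter group of gained regions is in no empty vector list at any length. There were 1939 of these. ARID1A_Y42S 1 called 5 (0.258%, interval 0.110 to 0.602) at equal length and 254 (13.1%, interval 11.7 to 14.7) in its whole list. ARID1A_Y42S 2 called 34 (1.75%, interval 1.26 to 2.44) in either. ARID1B_Block9del 1 and 2, with lists of 30104 and 30102 peaks, called 34.04% and 36.46% of them in full. ARID1A_AQGscramC1C2 1 and 2, with 28880 and 36113 peaks, called 6.55% and 16.5%, and ARID1A_DDX4 1 and 2 called 3.09% and 4.38%. Of all regions, the whole lists of ARID1A_Y42S 1 and 2 held 80.1% and 63.6%. The mean for whole lists was 81.8% in ARID1B_Block9del, 83.1% in ARID1A_AQGscramC1C2 and 68.2% in ARID1A_DDX4. In total 1678 of the 1939 were in neither whole ARID1A_Y42S list. A minority of the regions open with wild type and never with the empty vector was thus present in ARID1A_Y42S 1 as weak peaks.

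Calls by ARID1A_Y42S were more frequent where wild type was strong. The gained regions were put in 4 groups of 719 by their rank averaged over the wild-type lists. In the group ranked best, ARID1A_Y42S 1 called 3.76% and ARID1A_Y42S 2 called 10.6% at equal length. In the group ranked last the values were 1.39% and 4.17%. The decline was not particular to ARID1A_Y42S. At equal length every library of the other constructs except wild-type ARID1A, which chose the regions, also called more of the best group. ARID1A_DDX4 1 went from 14.7% to 4.73%, ARID1B_Block9del 1 from 4.73% to 2.36% and ARID1A_DBDmut 1 from 78.9% to 19.9%. In the lists as deposited, ARID1A_Y42S 1 went from 46.6% in the best group to 14.6% in the last, Empty_vector 1 from 32.7% to 21.8% and Empty_vector 2 from 35.7% to 25.5%. Empty_vector 3 and 4 stayed between 4.31% and 9.74% in all 4 groups. In the deposited lists the decline was thus seen in ARID1A_Y42S 1 and in Empty_vector 1 and 2. It was also seen in other constructs, such as ARID1B_Block9del 1, from 62.3% to 28.5%. The empty vector shares are again limited to peaks past the cut, so the levels of the 2 kinds of library were not compared.

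**Figure D4:**
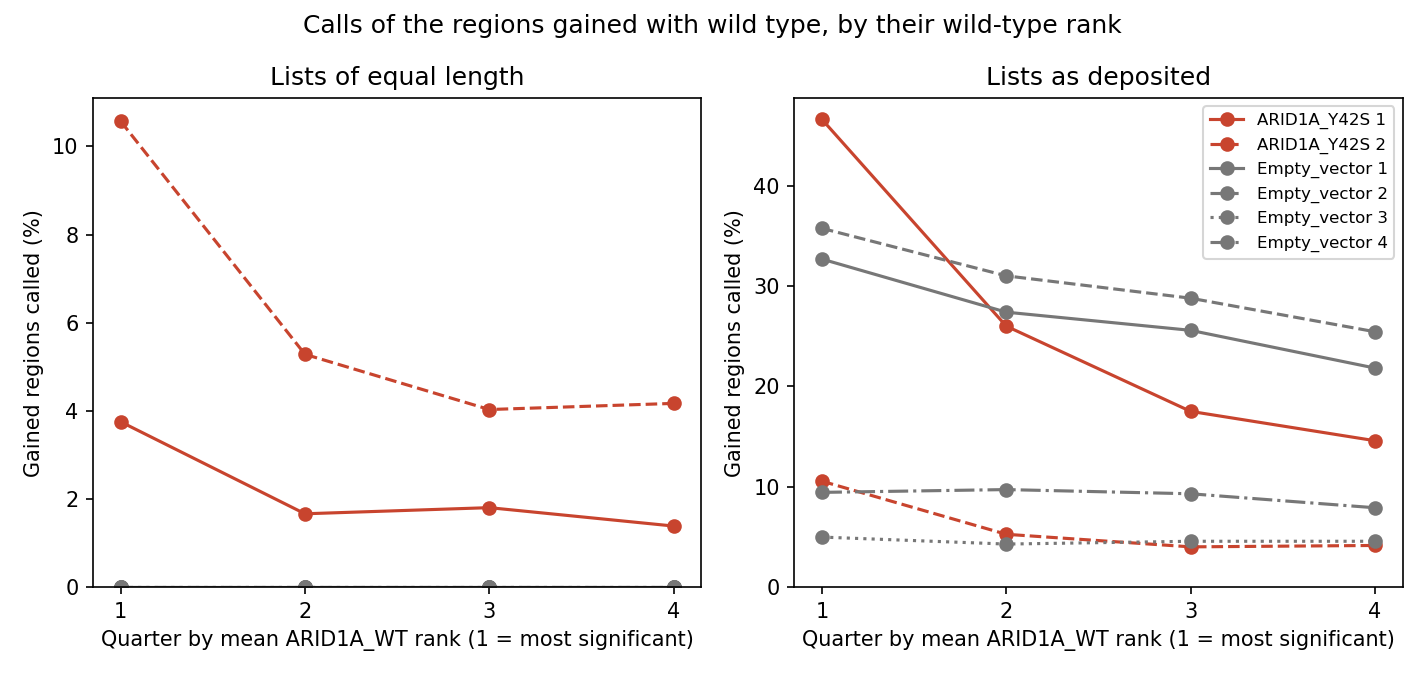
Percent of the 2876 gained regions called (vertical axis) in 4 groups of 719 regions ordered by mean ARID1A_WT rank (horizontal axis, 1 the most significant), with lists of equal length (left) and as deposited (right), one line per library. In the deposited lists ARID1A_Y42S 1 falls from 46.6% to 14.6% across the groups; the regions were chosen to be in no empty vector list of equal length, which sets the empty vector lines to 0 on the left and limits them to peaks past the cut on the right.

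The 12 regions with the best mean wild-type rank among those called with wild type and by no ARID1A_Y42S or empty vector library show this region by region. All coordinates are hg19, and gene annotation of that build was not used here. The best ranked, chr7:101170945-101171848, had fold enrichments of 6.30 and 6.55 and ranks of 2504 and 1411 in ARID1A_WT 1 and 2, and was in no ARID1A_Y42S or empty vector list even in full. Fold enrichments are the authors' own, each over the background that the peak caller estimated in that library. The same held for chr10:69913219-69914142, with wild-type folds of 7.52 and 6.47. The other 10 of the 12 were all in the whole list of ARID1A_Y42S 1, at ranks from 19688 to 28000. By how the regions were chosen, peaks of ARID1A_Y42S 1 could lie only past the cut. None could be in the whole list of ARID1A_Y42S 2, which ends at the cut. The 12 were picked by wild-type rank and are not typical of their class. Of all 2681 regions of the class, 572 (21.3%) were in the whole list of ARID1A_Y42S 1. That list held 80.1% of all regions.

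Among those 10, chr7:36342624-36343894 lay nearest the cut. It ranked 2971 and 3289 in the wild-type lists, with folds of 4.90 and 4.98, and 19688 in ARID1A_Y42S 1, with a fold of 5.91. It was in no empty vector list. Its higher fold in ARID1A_Y42S 1 beside a much lower rank shows that fold and significance order peaks differently between libraries. At chr15:67175580-67176315 the wild-type folds were 8.20 and 6.84, at ranks 1453 and 4400. The ARID1A_Y42S 1 peak there had a fold of 5.10 at rank 25699, and the peaks of Empty_vector 1 and 2 had folds of 3.83 and 3.35 at ranks 41478 and 45321. In all, 7 of the 12 were in some whole empty vector list.

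Elsewhere in the series these 12 regions were widely called at equal length. Both libraries of ARID1A_DBDmut, ARID1A_delIDR1, ARID1B_WT, ARID1B_A457_G461del and ARID1B_S320_G327del called all 12. Both libraries of ARID1B_Block13del called 9 and both of ARID1A_CBR called 5. For ARID1A_DDX4, ARID1A_AQGscramC1C2 and ARID1B_Block9del, no region was called by both libraries. Over all 2681 regions of this kind, the share called at equal length was 84.1% ± 1.32 in ARID1B_S320_G327del, 73.5% ± 0.185 in ARID1B_WT and 62.8% ± 0.712 in ARID1B_A457_G461del. It was 41.6% ± 2.74 in ARID1A_DBDmut, 4.42% ± 0.870 in ARID1A_DDX4, 1.10% ± 0.237 in ARID1B_Block9del and 0.709% ± 0.158 in ARID1A_AQGscramC1C2 (SD, n = 2 each). ARID1A_delIDR1 called 38.0% ± 1.11, ARID1B_Block13del 19.6% ± 1.42 and ARID1A_CBR 16.7% ± 0.580 (SD, n = 2 each). Over all regions the share was 56.8% in ARID1B_WT, 62.5% in ARID1A_DDX4, 63.9% in ARID1B_Block9del and 64.2% in ARID1A_AQGscramC1C2. The regions missed with ARID1A_Y42S were thus mostly called with ARID1B wild type and rarely with those other 3 constructs. They were chosen as absent from ARID1A_Y42S and the empty vector, so lists like those score low by choice.

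**Figure D5:**
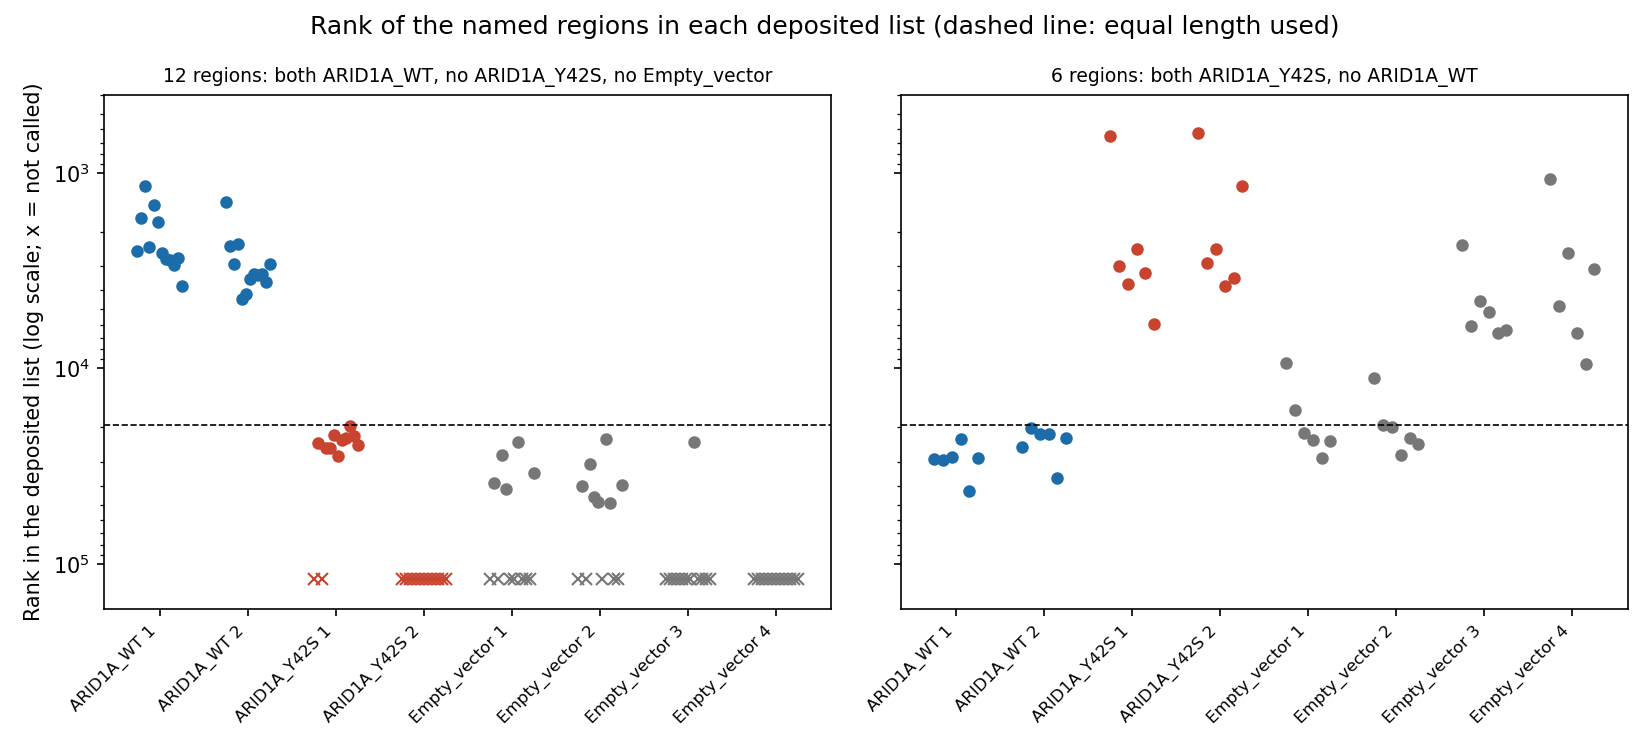
Rank in the deposited list (vertical axis, log scale, best at the top; a cross marks no peak) in each of the 8 libraries (horizontal axis) for 12 regions called only with wild type (left) and 6 called with ARID1A_Y42S and not with wild type (right). On the left 10 of the 12 have a peak in ARID1A_Y42S 1 past the dashed line at rank 19433, at ranks from 19688 to 28000. By how the regions were chosen none can have one in ARID1A_Y42S 2, whose list ends at that line. On the right all 6 have peaks in every library.

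The gained regions that ARID1A_Y42S kept were few, and most had a peak in some whole empty vector list, as regions in general did. Of the 40 kept by both replicates, 37 (92.5%) were in at least 1 whole empty vector list and 22 in all 4. Of all 29759 regions, 89.1% were in at least 1 such list and 21191 in all 4. Of the 2681 regions called with wild type and by no ARID1A_Y42S or empty vector library at equal length, 778 (29.0%) were in at least 1 whole empty vector list. The kept regions had a median width of 1022 bp, against 863 bp for those 2681. The median distance to the nearest region called in all 8 libraries was 45543 bp for the kept and 47907 bp for the missed. For regions called by both ARID1A_Y42S and neither wild-type library it was 36453 bp. Over any region it was 7137 bp. That value is not a like baseline, since it includes the regions called in all 8, each of which counts as its own nearest.

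At chr10:102124154-102125852, a kept region, the folds were 5.34 and 5.21 in ARID1A_WT 1 and 2 and 5.33 and 3.62 in ARID1A_Y42S 1 and 2. The empty vector folds there ran from 2.93 to 3.77, at ranks from 21765 to 28685. At chr3:42113173-42114318 the wild-type ranks were 7029 and 3898, the ARID1A_Y42S ranks 14108 and 14811, and the empty vector ranks 20064, 26605, 20741 and 22115. Wild type ranked both regions ahead of ARID1A_Y42S. The empty vector ranks lie past the cut by how kept regions were chosen. At chr7:144216685-144217647 ARID1A_Y42S came first, with ranks of 13596 and 11661 against wild-type ranks of 16601 and 17846. It also came first by mean rank at chr5:124661469-124663140 (13594.5 against 15450.5) and chr1:52034933-52036133 (14249.5 against 15999). At chr5:150168982-150170409 the mean ranks were nearly equal, 12080.5 in ARID1A_Y42S and 12049 in wild type. The 6 best ranked kept regions were in all 4 whole empty vector lists.

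The regions that wild type lost were called unequally by the ARID1A_Y42S replicates. All 4 empty vector libraries and neither wild-type library called 1096 regions (3.68% of all) at equal length. ARID1A_Y42S 1 called 875 of them (79.8%, interval 77.4 to 82.1) and ARID1A_Y42S 2 called 664 (60.6%, interval 57.7 to 63.4). Over all regions these libraries called 65.0% and 63.6%, so ARID1A_Y42S 1 was above and ARID1A_Y42S 2 slightly below its own share of regions in general. That share is not a like baseline, since the lost regions were chosen as called by all 4 empty vector libraries. Both ARID1A_Y42S libraries called 568 of the 1096, exactly 1 of them 403 and neither 125. All 4 empty vector libraries called 15713 regions, of which neither ARID1A_Y42S library called 252. Those 252 include the 125, so lost regions were missed more often than others that the whole empty vector group called. ARID1B_Block9del, of the same date code, called 78.0% ± 1.74 of the 1096 (SD, n = 2). In the whole lists of ARID1A_WT 1 and 2, 99.5% and 96.2% of these regions had a peak, close to the 97.6% and 95.0% of all regions that have one there.

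On the lost sets made within date codes, 4241 and 4294 regions, ARID1A_Y42S 1 and 2 called 57.0% and 42.2%. ARID1A_WT 1 and 2 called 22.7% and 19.9%, and Empty_vector 1 to 4 called 73.6%, 71.1%, 56.2% and 60.1%. ARID1A_Y42S 1 lay inside the empty vector range and ARID1A_Y42S 2 below it, and both lay above wild type.

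The regions called with ARID1A_Y42S and not with wild type were then set against each empty vector library. Empty_vector 3 and 4 called 73.5% and 72.9% of the 1708, and Empty_vector 1 and 2 called 51.1% and 55.3%. Over all regions the 4 libraries called between 64.4% and 65.2%, so the empty vector libraries that do not share a date code with wild type called more of them than of regions in general, and the other 2 fewer. In whole lists 1632 of the 1708 (95.6%) had a peak in both wild-type libraries, against 94.6% of all regions, 22 had one in neither, and 4 had none in any empty vector list. Their median width was 776.5 bp. ARID1B_Block9del called 74.8% ± 0.414 of them, ARID1A_DDX4 71.6% ± 0.952 and ARID1A_AQGscramC1C2 69.6% ± 2.94 at equal length, against 16.5% ± 0.580 in ARID1B_WT (SD, n = 2 each).

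The best ranked of them, chr2:224006185-224007865, ranked 648 and 623 in ARID1A_Y42S 1 and 2 with folds of 5.39 and 6.22. It ranked 9423, 11201, 2344 and 1074 in Empty_vector 1 to 4, and 29045 and 25342 in ARID1A_WT 1 and 2 with folds of 3.55 and 3.68. ARID1A_Y42S and Empty_vector 3 and 4 were thus high there, Empty_vector 1 and 2 between, and wild type low. At chr13:81109658-81110705 the ARID1A_Y42S ranks were 3273 and 3459, those of Empty_vector 3 and 4 were 6625 and 9515, those of Empty_vector 1 and 2 were 28922 and 22705, and those of wild type 42597 and 36335. A second named region, chr13:81136378-81137121, lies nearby, with ARID1A_Y42S ranks of 2451 and 3803. All 6 of the best ranked regions of this class had a peak in all 8 whole lists.

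Of the 164 regions called with ARID1A_Y42S by no wild-type and no empty vector library at equal length, 160 (97.6%) were in at least 1 whole empty vector list, against 89.1% of all regions. In both whole wild-type lists were 138 (84.1%), against 94.6% of all regions. At chr13:81169993-81170531 the folds were 5.83 and 5.91 in ARID1A_Y42S 1 and 2, 3.40 and 3.41 in wild type, and from 3.33 to 4.82 in the empty vector. At chr1:88049213-88050620 the ARID1A_Y42S folds were 4.12 and 4.54, at ranks 12896 and 9968. Wild-type replicate 1 had a peak there at rank 74153 with a fold of 2.66 and replicate 2 had none. Empty_vector 3 and 4 had folds of 4.30 and 3.82, and Empty_vector 1 and 2 had no peak.

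The regions missed with ARID1A_Y42S were unevenly spread over the genome. Of the regions that both wild-type libraries called, the share that neither ARID1A_Y42S library called was highest on chromosome 5, at 27.0% (310 of 1148). It was lowest on chromosome X, at 4.60% (15 of 326), and on chromosome 19, at 6.15% (64 of 1041). Chromosome 1, with the most regions, had 16.6% (289 of 1744). The gained regions, chosen without ARID1A_Y42S, were spread alike, at 317 of the 1148 on chromosome 5. They were 14 of the 326 on chromosome X and 50 of the 1041 on chromosome 19. Of the 2942 missed regions, 2681 are also among the 2876 gained, so a like spread follows from the overlap. The unevenness was thus already present in the regions gained with wild type. A group of 6 missed regions, in no empty vector library at equal length, lay between 14413157 and 14502590 on chromosome 3. All 6 were in both whole wild-type lists, 1 was in the whole list of ARID1A_Y42S 1 and 1 each in those of Empty_vector 1 and 2. None could be in that of ARID1A_Y42S 2, which ends at the cut. ARID1B_WT 1 and 2 called 5 and 6 at equal length. A group of 5 lay between 158410575 and 158482518 on chromosome 6, of which the whole lists of ARID1A_Y42S 1 and Empty_vector 2 held 2 each. These groups were picked after their values were seen.

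Within the 12927 regions called in all 8 libraries, ARID1A_Y42S also ordered the peaks differently from wild type. The rank correlation across regions, which are not independent replicates and share a list, was 0.940 between the wild-type libraries and 0.855 between the ARID1A_Y42S libraries. It ranged from 0.756 to 0.802 between ARID1A_Y42S and wild type, from 0.753 to 0.872 between ARID1A_Y42S and the empty vector, and from 0.815 to 0.907 between wild type and the empty vector. Wild type and ARID1A_Y42S were thus further from each other in order than wild type was from any empty vector library. Among the empty vector libraries, ARID1A_Y42S 1 was closest to Empty_vector 4, at 0.872, and ARID1A_Y42S 2 to Empty_vector 3, at 0.845, both with short lists. ARID1A_Y42S 2 was closer still to its own replicate. In 3522 of these regions (27.2%) both wild-type libraries ranked the region ahead of both ARID1A_Y42S libraries, and in 3787 (29.3%) the reverse held. Such counts were not made between the empty vector pairs, so they carry no baseline. The median absolute rank change was 1610.5 between wild type and ARID1A_Y42S and 1116 between Empty_vector 1 and 2 and Empty_vector 3 and 4. It was 1108.5 between ARID1A_Y42S and Empty_vector 3 and 4, and 986 between wild type and Empty_vector 1 and 2.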

How the data were processed

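ATAC-seq was run on AN3CA cells. Per the labels' protocols, tagmented DNA was amplified with 7 PCR cycles. Titles of the series and of its samples name ATAC-seq, but its design text speaks of CUT&Tag. The lists were treated as ATAC-seq. Per the submitters' processing notes, reads were handled with bcl2fastq, Bowtie2, SAMtools 0.1.19 and Picard 2.8.0, on hg19, and MACS2 is named for peaks. Its options, and any shift of reads for the cut site, were not given in the sources used here. Every library has a deposited list of its own, that is, calling was per sample. The authors' values per peak are a score, a fold enrichment (a ratio) and both the p-value and the q-value as -log10, and the deposited lists end at a -log10 q-value near 3. Read depth is unknown, since the lists hold no counts.

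Lists were restricted to chromosomes 1 to 22 and X, ranked by -log10 p-value and cut to 19433 peaks. Overlapping peaks of the 8 lists were merged, and calls needed an overlap of 1 bp. Exact permutation tests, two-sided, compared libraries, with Benjamini-Hochberg adjustment over 4 tests. Wilson intervals (95%) on shares reach up to 2.92 percentage points around the value in classes of over 1000 regions. Neighbouring regions are not independent. Python 3.11.15, numpy 2.4.6, pandas 2.3.3 and scipy 1.17.1 were used, and the counting and test code was checked on simulated lists.

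Members, region classes and tests were chosen with earlier results of these data known. Regions named in the text, none on chromosome 8, are the 12 best by mean wild-type rank among regions called by both wild-type and by no ARID1A_Y42S or empty vector library, the 6 best kept gained regions by mean ARID1A_Y42S rank, and the 6 best regions called by both ARID1A_Y42S and no wild-type library, with the 4 best of these in no empty vector library. Alternatives were whole lists, lists cut to 9716 peaks, equal covered bases, ranking by fold, a 50% overlap, 500 bp windows, each library left out, and a replicate block. An hg19 genome and annotation, protein sequences, gene lists and cell type markers were not used here, so regions carry no gene names or sequences.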

Additional observations from a re-analysis of the deposited data

How the results depend on the processing

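Of 120 recomputed values of the counts, differences and tests, 95 were labelled unchanged, 22 moved and 3 reversed. Counts had to stay within 1.5 times, and the Jaccard difference within its SD over the 2 ARID1A_Y42S libraries. No test passed 0.05 in any setting, which the number of libraries does not allow. Other differences therefore had only to keep their direction, and one that shrank to 0.571 percentage points counts as unchanged. The 95 include the replicate block and the 50% overlap. By construction the block keeps the differences and the overlap keeps the region calls. In whole lists the regions called only with wild type numbered 31798 and those only with ARID1A_Y42S 94, and the Jaccard difference was 0.272. The differences from the empty vector reversed there, to -1.33 percentage points for recovery and -4.04 for the share off the floor. The gained sets and the lists then have other lengths in each library. With lists of 9716 peaks the counts were 1012, 796 and, for kept regions, 11, the Jaccard difference was 0.0700, and recovery differed by -45.9 percentage points from wild type and 0.571 from the empty vector (exact permutation test, p = 0.8). With equal covered bases they were 498, 3481 and 63, with a Jaccard difference of 0.0930, and the share off the floor reversed against wild type, to 11.99 percentage points. Recovery was then 43.2% and 56.7% in ARID1A_Y42S, 60.5% and 76.7% in wild type and 12.7% to 38.6% in the empty vector, with differences of -18.6 and 21.7 percentage points. That setting leaves 10240 and 10780 peaks in the wild-type lists but 14583 and 19433 in those of ARID1A_Y42S, so it does not hold list length equal. Ranking by fold gave 2841 regions called only with ARID1A_Y42S and 23 kept, and put chr7:36342624-36343894 the other way, with a difference of -0.5 in the share of libraries that call it, wild type minus ARID1A_Y42S. The cause was not tested. The 50% overlap of the shorter interval leaves calls on merged regions as they are by construction.

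Leaving out 1 library at a time moved the regions called only with wild type from 2942 to 4898, those only with ARID1A_Y42S from 1709 to 5172 and the kept regions from 45 to 177, the highest values without ARID1A_Y42S 2, where lists of 24527 peaks were compared and 1 library decides a call. The Jaccard difference ran from 0.112 to 0.180. The recovery difference from wild type ran from -69.0 to -63.0, that from the empty vector from 2.14 to 4.59, and the share off the floor from -17.5 to -10.5 and from 1.12 to 5.31. Without ARID1A_WT 1 or 2 no gained set of another date code is left for the remaining wild-type library, so the recovery difference from wild type has no value. At 28314 peaks, an alternative chosen after seeing the data, the counts were 6019, 6468 and 544.

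With the replicate number as a block, the differences from wild type stayed at -64.2 and -12.6 percentage points (exact test over 4 sign changes, p = 0.5, the smallest it allows). The numbers do not pair the libraries: the labels name nothing shared, and the deviations of ARID1A_Y42S 1 and ARID1A_WT 1 from their group means had a correlation of 0.0332 across 12927 regions.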
